A study of Homo sapiens with 6 samples.

Results

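The genes described here encode the structures that fasten basal keratinocytes to the skin's basement membrane. They comprise the hemidesmosome genes COL17A1, ITGA6, ITGB4, DST, PLEC and CD151, the laminin-332 chain genes LAMA3 and LAMB3, and the anchoring fibril gene COL7A1. They were taken by gene symbol, as a set chosen with earlier results of these data known. All 9 were found among the 21961 genes of the count table. RNA came from HaCaT, an immortalised line of human keratinocytes, in 2 groups of 3 libraries titled mod and Nvs. The series text describes UVB-irradiated cells and irradiated cells given BVNV, the nanovesicles from Beta vulgaris (beet) of the series title. The sample labels call mod UV-induced and Nvs control, and mention no vesicles for Nvs, so the groups are named by title and a difference is always Nvs against mod. The labels state neither a UVB dose, a vesicle dose nor a time. HaCaT is 1 line, and nothing in the labels places the replicates in separate cultures, so p-values measure the spread between libraries, which may be technical.

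The hemidesmosome is a plaque on the basal face of the keratinocyte. Its core is the integrin α6β4, a pair of membrane-spanning chains that bind laminin-332 outside the cell. On the inside, the plakins plectin and BP230 tie the integrin and type XVII collagen to keratin filaments. Laminin-332, a trimer that includes the α3 and β3 chains, links the cell surface to the anchoring fibrils of type VII collagen, which reach into the dermis. Inherited loss of these proteins causes blistering of the skin.

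Total counts per library lay between 45637046 and 51369628 in mod and between 41120058 and 44080808 in Nvs. The mitochondrial genome's share of counts averaged 30.5% ± 0.817 over the mod libraries and 52.6% ± 0.751 over the Nvs libraries (SD, n = 3), so nuclear genes had a smaller remainder in Nvs. Scaled by TMM, which centres the typical gene, the median of the 14617 genes tested was at -0.01 on the log2 scale of Nvs minus mod, against -0.22 when scaled by counts outside the mitochondrial genome and -0.77 when scaled by library total. The part of the mitochondrial share in any result was not tested. Of 10 keratinocyte markers, 9 had at least 10 FPKM in every library, and their summed FPKM was 9880 to 10870 in mod and 9022 to 9790 in Nvs. The 7 fibroblast markers in the table summed to between 1.55 and 1.84 FPKM in mod and between 0.793 and 0.968 in Nvs, the 5 melanocyte markers to between 1.22 and 1.51 against 0.565 to 0.907, and the 7 leukocyte and endothelium markers to between 2.85 and 2.89 against 0.924 to 1.63. The labelled cell type thus had its own markers at high levels and those of the others near 0. In bulk RNA, fewer cells of a kind and less RNA per cell cannot be told apart.

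Relative to the typical gene, the 9 genes did not move as a block. The edgeR quasi-likelihood test over all genes called 5 of them lower in Nvs (ITGA6, COL17A1, LAMA3, DST and PLEC) and 3 higher (LAMB3, COL7A1 and CD151), at a Benjamini-Hochberg adjusted p under 0.05, while ITGB4 was not called. Scaled by library total, all 9 were called lower, with LAMB3, COL7A1 and CD151 turning to negative values, where 68% of all genes were called lower and 4.04% higher. By counts outside the mitochondrial genome 6 of the 9 were lower and 1, LAMB3, was higher, beside 34.5% and 14.6% of all genes. Among all genes tested 20.5% were called lower and 22.8% higher, and 43.3% were called in either direction. High counts make a call easier. Among the 1077 genes with a mean of at least 104 CPM, the mean of the lowest of the 9, the share called in either direction was 76.9% (28.5% lower, 48.4% higher). The libraries of the groups did not overlap in TMM-scaled CPM for 7 of the 9 genes, 4 of them lower and 3 higher in Nvs, as for 53.6% of all genes tested (26.7% lower, 27% higher). The median log2 fold change of the 9 was -0.25, against -0.01 over all genes.

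Apart from DST, these genes were among the more abundant mRNAs of the cells. By FPKM, DST exceeded 67.5% of all genes in mod and 64.5% in Nvs. Per transcript length, LAMB3 led in mod with 464 ± 19.4 FPKM (SD, n = 3), followed by ITGB4 with 216 ± 12.8, COL17A1 with 192 ± 1.13, ITGA6 with 113 ± 5.85, CD151 with 69.6 ± 1.84, PLEC with 55.1 ± 4.33, COL7A1 with 38.9 ± 2.76, LAMA3 with 27.6 ± 0.867 and DST with 3.06 ± 0.130. No 2 neighbours in that order overlapped. In Nvs the order changed in 2 places. CD151, at 47.4 ± 2.30 FPKM, stood above ITGA6, at 38.6 ± 1.97, and COL7A1, at 28.4 ± 2.36, drew level with PLEC, at 27.4 ± 1.70, with overlapping libraries. The others kept their places: LAMB3 had 390 ± 5.76, ITGB4 119 ± 6.10, COL17A1 77.0 ± 1.09, LAMA3 11.6 ± 0.849 and DST 1.48 ± 0.139 FPKM. The deposited FPKM values divide by the library total, so they carry the mitochondrial share and are lower in Nvs for all 9 genes without overlap, as for 71.6% of the genes tested (4.6% were higher without overlap). LAMB3 made up 39.3% ± 0.737 of the summed FPKM of the 9 genes in mod and 52.6% ± 0.858 in Nvs. COL17A1 made up 16.3% ± 0.495 and 10.4% ± 0.0136.

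**Figure D1:**
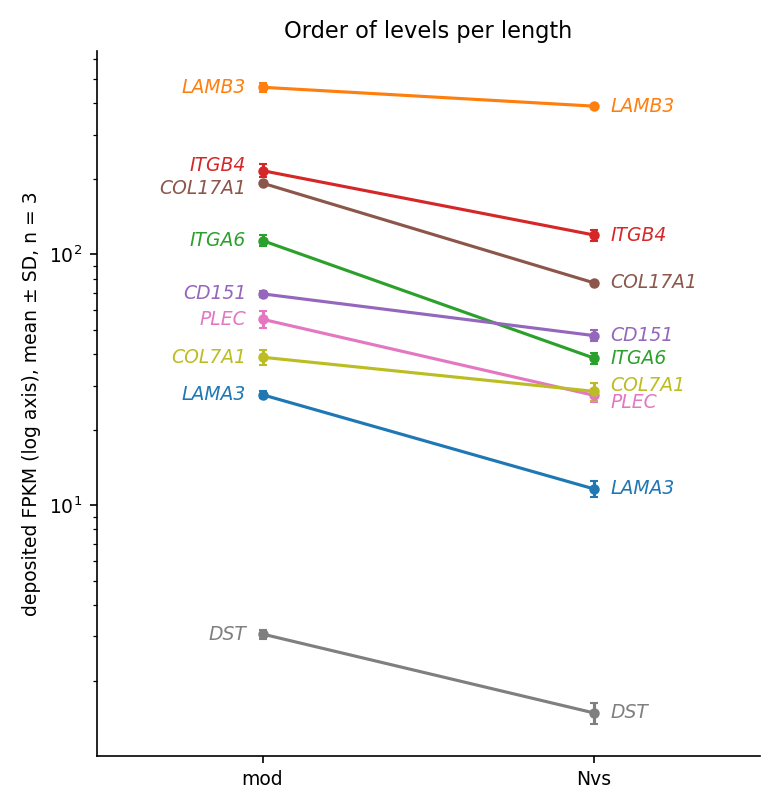
Deposited FPKM of the 9 genes on a log axis, as mean ± SD over the 3 libraries of mod (left) and Nvs (right). All lines fall, since FPKM is scaled by library total, and the CD151 and ITGA6 lines cross, from 69.6 against 113 FPKM in mod to 47.4 against 38.6 in Nvs.

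The lengths behind these levels matter for DST and LAMA3, which have long and short transcripts. Count over FPKM gave a length of 48.3 kb for DST and 14.5 kb for LAMA3, close to the 42.3 kb and 14.7 kb of all their exons merged in GENCODE release 29. The table gives 1 row per gene, so the epithelial BP230 transcript of DST and the shorter epidermal LAMA3 transcript are not separated from the longer ones. Their FPKM is a level averaged over all exons of the gene.

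The laminin chains went opposite ways relative to the typical gene. LAMA3 (chromosome 18, 23689443 to 23956222, plus strand, GENCODE 29 on GRCh38) encodes the α3 chain, which carries the integrin-binding end of the trimer. Its TMM-scaled level in mod replicates 1 to 3 was 300.1, 303 and 322 CPM, and in Nvs replicates 1 to 3 it was 234, 219 and 205 CPM. Every Nvs library lay below every mod library, and the log2 fold change was -0.49 ± 0.06 (SE, edgeR adjusted p = 1.54e-05). With the trend of fold change on transcript length removed it was -0.27 and still called (adjusted p = 0.00112). With the trend on genomic span removed, a setting chosen after seeing the data, it was -0.11 (adjusted p = 0.0948), so that call is lost there. LAMB3 (chromosome 1, 209614870 to 209652466, minus strand) encodes the β3 chain. It had 1749, 1594.5 and 1649 CPM in mod and 2317, 2358 and 2422 CPM in Nvs, again without overlap but with Nvs on top. Its log2 fold change was 0.51 ± 0.05 (adjusted p = 4.29e-06), and it remained positive, at 0.30, when scaled by counts outside the mitochondrial genome, but was -0.25 by library total.

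The ratio of LAMA3 to LAMB3 within a library does not depend on how libraries are scaled. In FPKM it was 0.0550, 0.0609 and 0.0627 in mod and 0.0324, 0.0299 and 0.0272 in Nvs. The groups did not overlap, and the mean log2 ratio differed by -0.9999 (exact permutation p = 0.1, two-sided, 0.12 adjusted over the 6 ratios compared). That p is the smallest that 3 against 3 libraries allow, so no ratio could pass 0.05. The ratio is not free of length trends. Its difference was -0.78 with the transcript length trend removed and -0.68 with the genomic span trend removed.

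Both genes hold matches to the AP-1 motif TGANTCA just upstream of a start annotated by RefSeq (GRCh38.p14), and these are shown because this pair moved apart. Each of these starts lies inside the span of its gene given above, downstream of the outer 5′ end. The counts, with 1 row per gene, do not show which start was used. Matches to 6 motifs were sought on both strands in the 250 bases before each start, in 11 windows covering 6 of the 9 genes. ITGB4 and CD151 had no window, and PLEC was left out of the search. The other motifs, with the share of all windows holding each, were Sp1 GGGCGG (42.6%), AP-2 GCCNNNGGC (19.8%), NF-kB (1.73%), the TATA box TATAAA (10.7%) and the E-box CANNTG (61.8%). The LAMA3 window had 2 matches, beginning 125 and 69 bases before the start, and 1 of the 3 LAMB3 windows had 1, beginning 67 bases before. Of 35116 windows over all genes, 6.57% had at least 1. Each site is given 5′ to 3′ on the strand of its gene with 10 bases on either side and the motif in capitals. The LAMA3 sites lie at chr18:23872885-23872911 and chr18:23872941-23872967, within a LAMA3 exon of GENCODE 29, and the LAMB3 site at chr1:209651425-209651451, outside its exons.
LAMA3 first site: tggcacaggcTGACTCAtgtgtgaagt
LAMA3 second site: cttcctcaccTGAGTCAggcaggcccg
LAMB3 site: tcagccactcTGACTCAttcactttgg
A match in letters is a description and does not show binding in these cells.

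**Figure D2:**
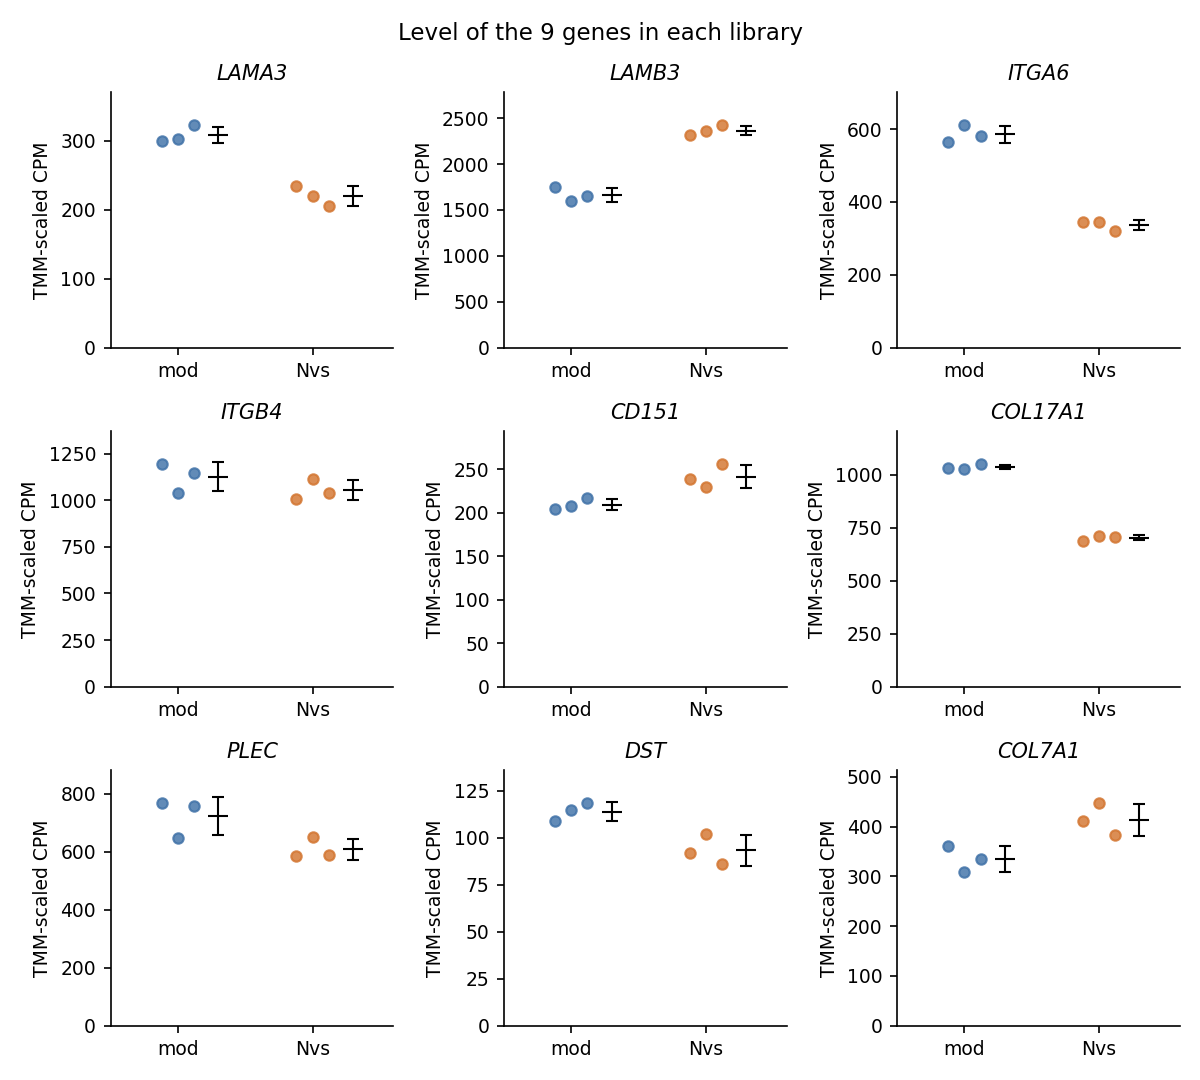
TMM-scaled CPM of each gene in each library (points, mod in blue and Nvs in orange), with the mean ± SD over 3 libraries as a black bar; each axis starts at 0. The groups separate for every gene except ITGB4 and PLEC, with LAMB3, CD151 and COL7A1 higher in Nvs on this scale (all 3 are negative by library total, and CD151 is -0.00 by nuclear total and -0.07 with the span trend removed) and COL17A1, ITGA6, LAMA3 and DST lower (DST turns to 0.02 and 0.16 with either length trend removed).

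Of the integrin pair, the α chain fell and the β chain was not called. ITGA6 (chromosome 2, 172427354 to 172506282, plus strand) encodes the α6 subunit. It had 563, 610.1 and 582 CPM in mod and 345, 344 and 319 in Nvs. No library overlapped, and its fall was the largest of the 9 genes with TMM, at -0.80 ± 0.05 (adjusted p = 7.28e-08), a value below which 8.79% of the tested genes lay. It was lower under every alternative scaling and length correction run, between -0.62 and -1.56. ITGB4 (chromosome 17, 75721328 to 75757818, plus strand) encodes the β4 subunit, whose long cytoplasmic tail binds plectin. Its levels of 1193, 1040.1 and 1146 CPM in mod and 1009.7, 1114 and 1040.2 in Nvs overlapped. The log2 fold change was -0.09 ± 0.06 (adjusted p = 0.232). It was called lower by nuclear total (-0.30), by library total (-0.85) and without mod replicate 2 (-0.16, adjusted p = 0.0497), and stood at 0.01 with the transcript length trend removed.

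The integrin ratio moved accordingly. The ITGA6 to ITGB4 ratio of FPKM was 0.478, 0.594 and 0.514 in mod and 0.346, 0.313 and 0.311 in Nvs. Groups were apart, with a difference in mean log2 ratio of -0.71 (exact permutation p = 0.1, 0.12 adjusted). That difference was -0.71 with the transcript length trend removed and -0.57 with the span trend removed. Upstream of ITGA6, the first of its 2 RefSeq windows (chr2:172427086-172427335, plus strand, no overlap with its exons) is shown because this gene fell most, with its 1 match to the TATA box letters in capitals. The match reads TTTATA on the strand of ITGA6, so TATAAA itself lies on the opposite strand. This window also has 7 E-box matches, not marked, and none of the other 4 motifs. The second window (chr2:172427336-172427585), directly beside it, is not shown. That one shares 148 bases with ITGA6 exons and has 3 Sp1, 1 AP-2 and 2 E-box matches. Exons of ITGA6 overlap those of 3 antisense genes by 52 to 174 bases, of which ITGA6-AS1 has a total of 10 reads over the 6 libraries.
ITGA6: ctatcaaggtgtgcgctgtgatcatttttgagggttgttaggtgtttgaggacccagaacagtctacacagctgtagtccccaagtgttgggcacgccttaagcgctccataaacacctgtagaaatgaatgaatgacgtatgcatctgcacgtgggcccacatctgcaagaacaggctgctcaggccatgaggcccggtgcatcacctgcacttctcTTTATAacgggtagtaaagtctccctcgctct

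CD151 (chromosome 11, 832843 to 839831, plus strand) encodes a tetraspanin that associates with laminin-binding integrins. It had 204, 207 and 217 CPM in mod and 239, 229.6 and 256 in Nvs. The Nvs libraries all lay above the mod libraries, with a log2 fold change of 0.21 ± 0.05 (adjusted p = 0.00803). The value was -0.00 by nuclear total, -0.55 by library total and -0.07 with the span trend removed, so its direction depends on the scaling. Exons of CD151 share 41 bases with the antisense gene AP006621.1 and 257 bases with those of POLR2L, an RNA polymerase subunit gene on the opposite strand, whose own counts were 1865, 1862 and 1642 in mod and 2757, 2141 and 2773 in Nvs (log2 fold change 1.45 ± 0.08, adjusted p = 1.05e-08). The strand setting of the counting is not given in the sources used here, so reads of POLR2L may be among those of CD151, and that part was not tested. Relative to ITGA6, whose protein it accompanies, CD151 went from 0.620, 0.583 and 0.639 by FPKM in mod to 1.18, 1.14 and 1.37 in Nvs, a difference in mean log2 ratio of 1.00 (exact permutation p = 0.1, 0.12 adjusted). That difference was 0.86 with the transcript length trend removed and 0.55 with the span trend removed.

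Type XVII collagen and both plakins were lower in Nvs with TMM scaling. COL17A1 (chromosome 10, 104031286 to 104085957, minus strand) encodes a collagen that spans the membrane. It had 1034, 1028 and 1050.3 CPM in mod and 689.5, 712 and 706 in Nvs, with the smallest spread of the 9 genes relative to its mean. Groups were far apart, and the log2 fold change of -0.56 ± 0.05 (adjusted p = 5.55e-07) stayed between -0.45 and -1.32 under every alternative scaling and length correction run. PLEC (chromosome 8, 143915147 to 143976734, minus strand) encodes plectin. Its levels were 767, 649 and 756 CPM in mod and 584, 651 and 590.0 in Nvs. Here mod replicate 2 lay just below Nvs replicate 2, and the fall of 0.25 ± 0.07 on the log2 scale was called (adjusted p = 0.00901) but had an adjusted p of 0.0502 without Nvs replicate 1. DST (chromosome 6, 56457987 to 56954628, minus strand) encodes BP230 and other spectraplakins. It had 109, 115 and 118 CPM in mod and 92.0, 102 and 85.8 in Nvs. The groups did not overlap, with a log2 fold change of -0.29 ± 0.07 (adjusted p = 0.00329).

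The plakin falls did not outlast the removal of a length trend. With the trend on transcript length removed, PLEC stood at -0.01 (adjusted p = 0.892) and DST at 0.02 (adjusted p = 0.815). With the trend on genomic span removed, a setting chosen after seeing the data, PLEC was at -0.11 (adjusted p = 0.196) and DST at 0.16, which was called higher (adjusted p = 0.0416). DST spans 497 kb and LAMA3 266 kb in the RefSeq table, and the other 7 genes span 5.88 to 79.1 kb. The ratio of DST to PLEC was 0.05002, 0.0625 and 0.0552 by FPKM in mod and 0.0556, 0.0555 and 0.0513 in Nvs. The groups overlapped, and the mean log2 ratio differed by -0.04 (exact permutation p = 0.9, 0.9 adjusted). The ratio of PLEC to its binding partner ITGB4 was 0.256, 0.248 and 0.262 in mod and 0.230, 0.232 and 0.226 in Nvs, a difference of -0.15 on the log2 scale without overlap (exact permutation p = 0.1, 0.12 adjusted). This PLEC to ITGB4 difference shrank to -0.02 with the transcript length trend removed (exact permutation p = 0.4). It was -0.07 with the span trend removed (exact permutation p = 0.1).

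The anchoring fibril gene rose relative to the typical gene. COL7A1 (chromosome 3, 48564073 to 48595267, minus strand) had 361, 308 and 335 CPM in mod and 411, 447 and 382 in Nvs. No library overlapped, with a log2 fold change of 0.30 ± 0.07 (adjusted p = 0.00271). Scaled by nuclear total the value was 0.10 (adjusted p = 0.267, not called), and by library total it was -0.45. With the transcript length trend removed it was 0.49. The 2 collagens of the set thus diverged: COL7A1 stood at 0.219, 0.188 and 0.200 of COL17A1 by FPKM in mod and at 0.375, 0.394 and 0.340 in Nvs, a difference in mean log2 ratio of 0.87 (exact permutation p = 0.1, 0.12 adjusted). That difference was 0.94 with the transcript length trend removed and 0.78 with the span trend removed. The COL7A1 window upstream of its RefSeq start (chr3:48595330-48595579, minus strand, no overlap with its exons) is shown as that of a gene with a positive fold, with its 3 Sp1 matches and 1 TATA box match in capitals, on either strand. Its TATA box match reads TTTATA on the strand of COL7A1, so TATAAA itself lies on the opposite strand. The window also has 1 NF-kB and 1 E-box match, not marked.
COL7A1: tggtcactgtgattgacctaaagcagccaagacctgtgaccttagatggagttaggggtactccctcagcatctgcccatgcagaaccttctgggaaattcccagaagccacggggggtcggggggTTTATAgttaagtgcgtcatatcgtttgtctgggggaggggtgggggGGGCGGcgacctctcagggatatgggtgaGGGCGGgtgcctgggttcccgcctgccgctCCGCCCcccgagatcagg

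**Figure D3:**
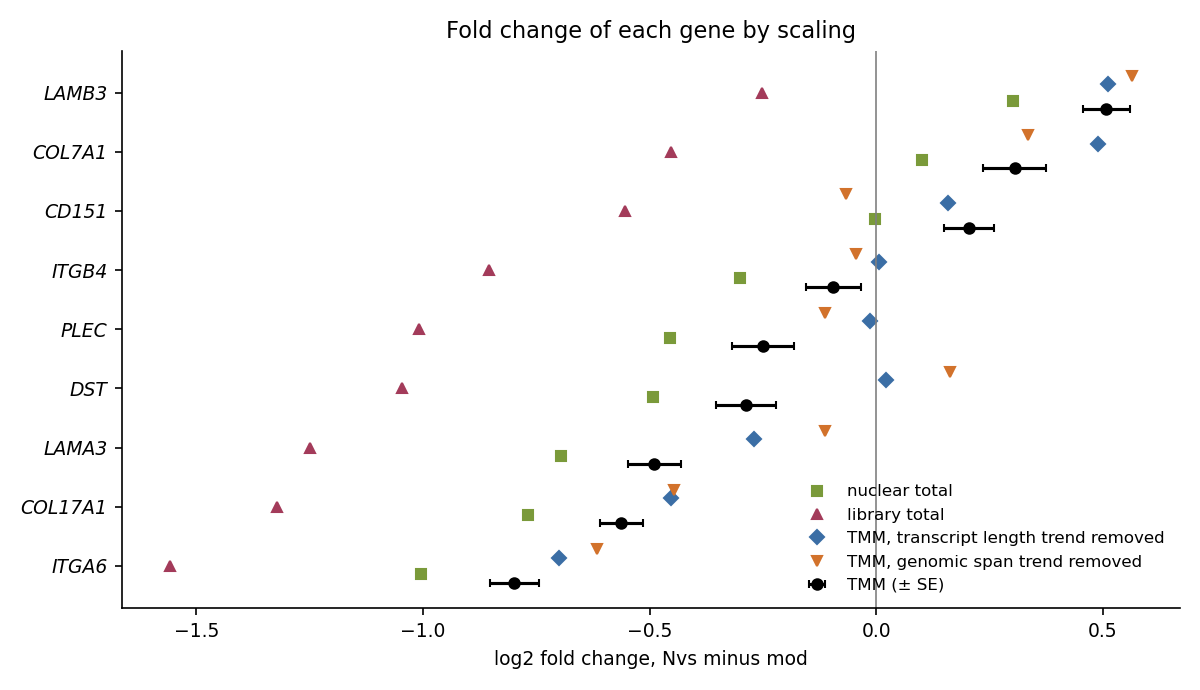
Log2 fold change (Nvs minus mod) of each gene with TMM (black, ± SE) and with 4 other settings: nuclear total, library total, and TMM with the trend on transcript length or genomic span removed. Changing the total shifts all genes together and keeps their order, from ITGA6 (-0.80 with TMM) to LAMB3 (0.51); removing the transcript length trend moves DST, PLEC, LAMA3 and COL7A1 most, and removing the genomic span trend moves DST, LAMA3, CD151 and ITGA6 most. The sign changes for DST under both (0.02 and 0.16), for ITGB4 under the former (0.01) and for CD151 under the latter (-0.07).

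**Figure D4:**
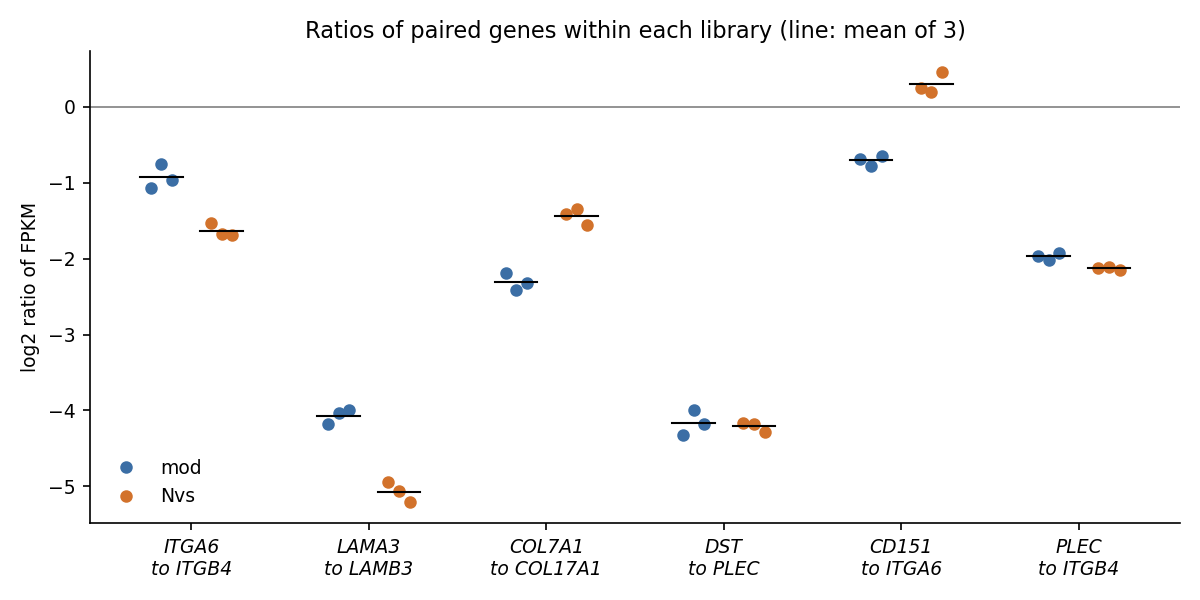
Log2 ratio of FPKM for the 6 pairs of genes, with 1 point per library and a line at the mean of 3 (mod in blue, Nvs in orange). The groups are apart for 5 pairs, and the DST to PLEC ratio overlaps, with means of -4.17 and -4.21.

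Genes linked to the 9 were mostly lower in Nvs with TMM scaling. Lists of partners held 73 genes, of which 71 were in the table and 65 were tested; 41 were called lower and 3 higher, with a median log2 fold change of -0.30 against -0.01 over all genes. Over all genes tested 20.5% were called lower and 22.8% higher, which is the background for the counts of each list that follow. Among the 1077 genes with a mean of at least 104 CPM, 28.5% were called lower and 48.4% higher. Many partners have levels that high, while others lie far below. With the transcript length trend removed, 30 of the partners were lower and 5 higher. With the genomic span trend removed, 32 were lower and 8 higher, and by library total 60 were lower and 0 higher. Among laminin receptors and partners 5 of 6 fell: DAG1, the dystroglycan gene (-0.73 ± 0.05, adjusted p = 7.19e-08), the integrin β1 gene ITGB1 (-0.69 ± 0.06, adjusted p = 1.13e-06), the syndecan genes SDC1 (-0.30) and SDC4 (-0.19), and ITGA3 (-0.14), which encodes the partner of β1 in the other laminin-332 integrin of keratinocytes. The ITGA3 call was lost with either trend removed, at 0.03 for transcript length (adjusted p = 0.625) and -0.09 for span (adjusted p = 0.133).

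The keratins that hemidesmosomes anchor were split. KRT14 went from 8118 to 12547 CPM on average (0.63 ± 0.06, adjusted p = 2.41e-06), though it was -0.13 by library total. Its partner KRT5 was not called with TMM (7258 and 6968 CPM, -0.06 ± 0.06, adjusted p = 0.428). KRT5 was called lower by nuclear total (-0.27, adjusted p = 0.000447), by library total (-0.82, adjusted p = 5.89e-09) and with the span trend removed (-0.33, adjusted p = 0.000101). KRT15 was called lower with TMM (-0.23).

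Basement membrane genes outside laminin-332 showed the lowest list median, at -0.66. Of 9 tested, 7 were called lower and 0 higher at an adjusted p under 0.05 by edgeR. They included the laminin chain genes LAMC1 (181 to 115 CPM, -0.66 ± 0.05, adjusted p = 3.97e-07) and LAMB1 (46.1 to 23.8 CPM, -0.95 ± 0.09, adjusted p = 2.91e-06) and the heparan sulphate proteoglycan gene AGRN (-0.75 ± 0.07, adjusted p = 2.56e-06). These calls and that of NID1 held with either length trend removed. Removing the transcript length trend lost the calls of LAMA5, LAMB2 and HSPG2 (edgeR adjusted p = 0.445, 0.308 and 0.199). Removing the span trend lost those of LAMA5 and HSPG2 (adjusted p = 0.0522 and 0.204). The other plakin genes, MACF1 (-0.57), EVPL (-0.60), PPL (-0.40) and DSP (-0.39), were all 4 called lower. The MACF1 call was lost with the span trend removed (-0.15, adjusted p = 0.0627), while the other 3 were called lower with either trend removed.

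Of 9 tested proteases that trim these proteins, 6 were called lower and 1 higher. ADAM10, a membrane sheddase, had the smallest adjusted p (-0.72 ± 0.07, adjusted p = 3.73e-06), followed by MMP14 (-0.39) and FURIN (-0.31). BMP1, which processes laminin and type VII procollagen, went from 86.9 to 75.1 CPM (-0.21 ± 0.06, adjusted p = 0.00997), a call lost with either trend removed (-0.10, adjusted p = 0.200 for transcript length, and -0.12, adjusted p = 0.116 for span). PLAT was the 1 called higher (0.54 ± 0.16, adjusted p = 0.0164), though it was not called by nuclear total (adjusted p = 0.108) and was -0.21 by library total. Among tetraspanins 6 of 12 tested were called lower and 0 higher by edgeR, with TSPAN1 (-0.41), TSPAN15 (-0.42) and CD81 (-0.28) first by adjusted p. The TSPAN15 call was lost with the span trend removed (-0.20, adjusted p = 0.0577). CD82, at 0.17 (adjusted p = 0.0538), was not called, but was called higher with the span trend removed (0.29, adjusted p = 0.0036) and had negative values by nuclear total (-0.03) and library total (-0.59).

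Focal adhesion adaptors had 4 of 9 called lower and 1 higher. FERMT1, the kindlin-1 gene, went from 80.4 to 58.3 CPM (-0.46 ± 0.07, adjusted p = 7.67e-05), VCL was at -0.42 and TLN1 at -0.23. The VCL call was lost with the span trend removed (-0.17, adjusted p = 0.0881) and the TLN1 call with the transcript length trend removed (-0.06, adjusted p = 0.488). ZYX was called higher (1.58 ± 0.48, adjusted p = 0.0166) on uneven counts of 312, 117 and 656 in mod and 472, 346 and 928 in Nvs, with overlapping levels, and was not called by library total (adjusted p = 0.127). Of the kinases and regulators 5 of 8 tested were called lower, EGFR (-0.62 ± 0.06, adjusted p = 2.79e-06), ERBB2 (-0.51), SRC (-1.14 ± 0.25), PRKCA (-1.45 ± 0.34) and MST1R (-0.22). The 2 largest of these folds rest on low levels. PRKCA averaged 2.09 CPM in mod and 0.764 in Nvs, and SRC 7.10 and 3.23. TP63, the transcription factor of basal keratinocytes, was not called (0.07 ± 0.05, adjusted p = 0.314). It was called higher with the transcript length trend removed (0.19, adjusted p = 0.00616) and with the span trend removed (0.46, adjusted p = 4.22e-06), and lower by library total (-0.69, adjusted p = 4.27e-08), so its direction depends on the setting. Among other skin fragility genes, CAST (-0.19), EXPH5 (-0.89) and PKP1 (-0.17) were called lower and KLHL24 (0.01) and TGM5 (-0.45) were not called. The EXPH5 fold also rests on a low level, averaging 3.85 CPM in mod and 2.07 in Nvs. CAST stood at 0.02 with the transcript length trend removed (adjusted p = 0.775) and was called higher with the span trend removed (0.31, adjusted p = 0.000192). The PKP1 call was lost in both (adjusted p = 0.196 and 0.318), and KLHL24 was called lower by nuclear total (-0.19, adjusted p = 0.0367) and library total (-0.75).

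**Figure D5:**
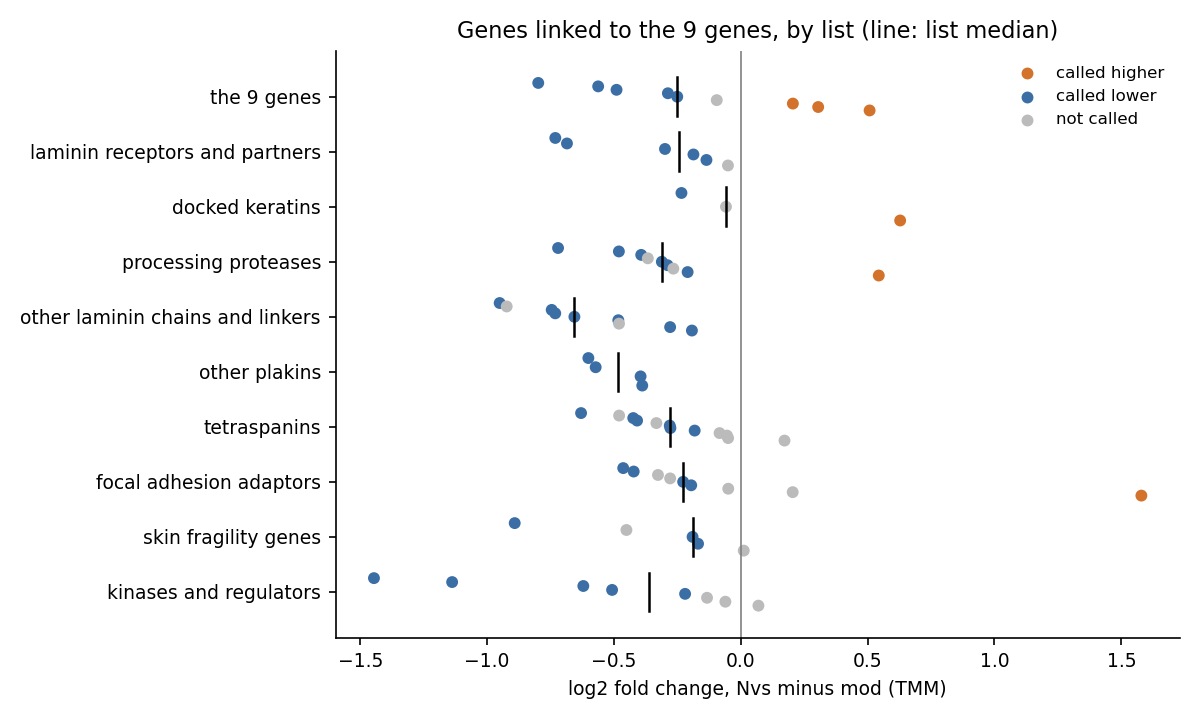
Log2 fold change (Nvs minus mod, TMM) of the 9 genes and of each tested gene of the partner lists, coloured by call, with a line at each list median. Most partner points lie left of 0, with list medians from -0.66 to -0.06, while LAMB3, COL7A1 and CD151 lie right of it on this scale (all 3 are negative by library total, CD151 also at -0.00 by nuclear total and -0.07 with the span trend removed).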

How the data were processed

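HaCaT libraries were poly(A)-selected and strand-specific (dUTP), read as 150 bp pairs, per the labels' protocols. The authors deposited raw counts per gene symbol and FPKM for the same genes and libraries, per the file headers; the submitters' processing notes name the build hg38. The sources used here do not give the aligner, counter, annotation or strand setting. Count over FPKM gave 1 length per gene, the same in every library within 1 percent, except for 26 of the 12579 genes whose counts summed to 200 or more.

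The deposited counts went into edgeR 4.0.16 under R 4.3.3: filterByExpr (minimum count 10, total 15), TMM, and the quasi-likelihood F test of Nvs against mod with group as its sole term, Benjamini-Hochberg adjusted over 14617 genes. SE is the log2 fold change over the square root of F. On simulated data of this comparison (14303 genes), 84% of genes changed 2-fold and 54% of those changed 1.5-fold were called. The simulation changed 100 genes at each fold, drawn over a wide range of levels, while 6328 genes were called in the data. Those shares thus need not apply to the 9 genes. Ratios of FPKM were compared by an exact permutation test. Alternatives used DESeq2 1.42.0, limma 3.58.1 on log2(FPKM + 1) and log2(FPKM + 0.1), other totals and filters, removal of length trends by offsets, a replicate block and leaving out each library. Replicates differed beyond sampling noise. All 9 genes are named, and of each partner list the called genes with the 3 smallest adjusted p in each direction, plus the rest of lists of 8 or fewer, except 1 partner that is not reported here. BMP1, CD82, PRKCA, MST1R, TP63, LAMA5, LAMB2, HSPG2 and NID1, outside that rule, and POLR2L, were named after their values were seen. The 9 genes and the lists were chosen with earlier results of these data known.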

Additional observations from a re-analysis of the deposited data

How the results depend on the processing

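Over all genes, 6328 were called. Scaling by library total called 10528 (591 higher, 9937 lower), limma on log2(FPKM + 1) 10719 (619 and 10100) and on log2(FPKM + 0.1) 10717 (620 and 10097), and the nuclear total 2128 higher and 5044 lower. Of the 9 genes, library total and both limma fits called 9 lower and 0 higher, and nuclear total 1 higher. Removal of the transcript length trend left 3 lower, and removal of the genomic span trend left 5 called, of which 2 were lower. Partners called higher went from 3 to 0 by library total and in both limma fits, to 5 and 8 with the transcript length and the span trend removed.

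By library total and in limma with pseudocounts 1 and 0.1, LAMB3 turned to -0.25, -0.25 and -0.25, CD151 to -0.55, -0.54 and -0.55, and COL7A1 to -0.45, -0.44 and -0.45; these 3 fits share the library total, by which the median gene moved. CD151 was at -0.0022 by nuclear total and -0.0665 with the span trend removed. With the transcript length trend removed, ITGB4 was at 0.0067, DST at 0.0206 and the difference in log2 DST to PLEC ratio at 0.0291; with the span trend removed, DST was at 0.16 and that difference at 0.27. The cause was not tested.

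Leaving out 1 library at a time called 5159 to 6392 genes, 7 to 9 of the 9 genes and 35 to 43 partners, with 1 to 3 partners higher (1 without mod replicate 1), and moved that difference between -0.12 and 0.0413, positive without mod replicate 2. The replicate numbers did not pair the libraries (correlation of deviations -0.02, -0.02 and -0.03); with the replicate block, 5949 genes, 40 partners and 8 of the 9 genes were called, and none of the 9 changed its call. Pairing by number leaves the mean differences of the ratios as they are. DESeq2, no filter and the stricter filter called 8 of the 9 genes each.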
